A study of Mus musculus with 2 samples.

Results

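The 8 Gimap genes counted in these libraries were described across the immune cells of adult mouse liver. They are Gimap1, Gimap3, Gimap4, Gimap5, Gimap6, Gimap7, Gimap8 and Gimap9, which are 8 of the 27998 gene rows of each matrix, and they were taken by gene symbol. They were chosen by measured values of these same data, their summed UMI counts over whole libraries: over all kept cells the ratio of the CD122+CD49a+ to the LSM library ran from 2.25 for Gimap1 to 65.0 for Gimap3. All 8 of 8 were thus at least 2-fold higher by choice (background 26.4% of genes, with 9.67% lower), and nothing is read from that.

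CD45+ leukocytes from the livers of wild-type C57BL/6 mice aged 7 to 10 weeks were sorted through 2 gates, and each gate gave 1 droplet single-cell library. One gate, called LSM, kept Lin-Sca-1+Mac-1+ cells. The other kept Lin-CD122+CD49a+ cells, where CD122 is a chain shared by the receptors of interleukins 2 and 15 and CD49a is an integrin of tissue-resident lymphocytes. No genotype or treatment set the gates apart, and the number of mice behind each library is not stated in the sources used.

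GIMAP proteins, the GTPases of the immunity-associated protein family, are small GTP-binding proteins, many of them anchored to membranes inside the cell, and they are best known from T cells, B cells and NK cells. Loss of Gimap5 or Gimap1 in mice or rats leaves the animals with few mature T cells, so the family is studied as a set of lymphocyte survival genes. Individual members have been tied to proteins of the Bcl2 family, to the kinase Gsk3b and to the autophagy protein Gabarapl2.

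With 1 library per gate no difference had a replicate check and no test was made. UMI counts are counts of molecules, so levels of different genes were compared as counts and not per base of transcript. Every interval in parentheses is an exact 95% interval for counting error alone, so it says nothing of the spread between mice. The kept cells were the 3074 LSM barcodes (median 5100.5 UMIs, unique molecular identifiers, per cell) and 1257 CD122+CD49a+ barcodes (median 1461 UMIs) with at least 500 detected genes, and they held 3207 and 3687 Gimap UMIs. The libraries had 2 kept barcodes in common, and leaving those out moved no ratio past its interval. Cells were put into classes by marker transcripts, without any Gimap gene: a lymphocyte had UMIs of at least 2 of 8 lymphocyte genes (such as Cd3e, Il2rb and Zap70), a progenitor-like cell of 2 of 6 (such as Cd34, Kit and Flt3), and a myeloid cell of 3 of 8 (such as Lyz2, Cst3 and H2-Aa) with no other class met. Lymphocytes were split into CD8 (a UMI of Cd8a or Cd8b1), then Tyrobp or Fcer1g (adaptors of innate receptors), then CD8-negative cells with a CD3 UMI. Both gates are labelled lineage-negative, yet CD3 transcripts were found in 676 CD122+CD49a+ and 76 LSM lymphocytes. The summed CD3 chains stood at 3297 CPM in the former and 3497 CPM in the latter, where CPM is the count in a class scaled to a class total of 1000000 UMIs. Of the 130 Tyrobp or Fcer1g lymphocytes of the CD122+CD49a+ gate, 116 had a CD3 UMI. A CD3 UMI alone was therefore not read as a T cell, and CD3 protein was not measured here. The neutrophil, hepatocyte and Kupffer cell lists had 0 UMIs in the CD3-transcript cells of both libraries, and the B cell, endothelial and erythroid lists had 0 to 9. The myeloid list stood at 294 CPM in those of the LSM library and at 823 CPM in the others, against 21964 and 26818 CPM in the myeloid cells. Cells with 4 or more of its 8 genes were not kept as lymphocytes, and myeloid cells needed 3. This gap was thus partly built in. LSM progenitor-like cells had the progenitor list at 933 CPM and no CD8 UMI. Just outside the lymphocyte rule lay 75 LSM and 89 CD122+CD49a+ cells with UMIs of 1 list gene, and just inside lay 23 and 123 cells with 2. Cells that met no rule, 211 LSM and 64 CD122+CD49a+ cells, had summed Gimap levels of 556 and 2073 CPM.

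The 8 genes lie side by side on chromosome 6 (GRCm38, GENCODE release M21), from 48647234 to 48770851, a stretch of 123.6 kb. Their order along the plus strand is Gimap8, Gimap9, Gimap4, Gimap6, Gimap7, Gimap1, Gimap5 and Gimap3, with Gimap6 and Gimap3 on the minus strand. Gimap4, a modulator of T cell death, occupies chr6:48684549-48692060, and Gimap3, a close relative of Gimap5, occupies chr6:48764464-48770851. The last 500 bases of the members' transcripts had no 50-base stretch in common. Counts of Gimap1 are uncertain in 1 respect: the antisense gene Gimap1os overlaps it, and no source used here states whether the counting used the strand. The predicted read-through gene Gm28053 overlaps 6.44% of the exonic bases of Gimap1, 3.69% of those of Gimap5 and 3.48% of those of Gimap7. Gm28053 itself had 5 UMIs in the LSM and 9 in the CD122+CD49a+ library.

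The 250 bases before the start of 4 members are shown because the results turn on these 2 pairs. Gimap3 and Gimap4 led in CD122+CD49a+ lymphocytes, and Gimap1 and Gimap6 led in progenitor-like cells. The sequences are from RefSeq (GRCm38.p6) and read 5′ to 3′ on the gene's strand, and capitals mark a match to a core motif of the RUNX family (TGTGGT) or the ETS family (GGAAGT), searched on both strands. The Gimap1 window also lies within an exon of Gimap1os. The last bases of the Gimap4 window lie in the first exon of another Gimap4 transcript.
Gimap3, chr6:48770852-48771101, minus strand: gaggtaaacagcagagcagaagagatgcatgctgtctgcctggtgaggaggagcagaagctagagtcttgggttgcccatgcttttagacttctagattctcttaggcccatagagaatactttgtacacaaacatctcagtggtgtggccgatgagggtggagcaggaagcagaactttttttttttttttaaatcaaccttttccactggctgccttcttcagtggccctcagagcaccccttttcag
Gimap4, chr6:48684328-48684577, plus strand: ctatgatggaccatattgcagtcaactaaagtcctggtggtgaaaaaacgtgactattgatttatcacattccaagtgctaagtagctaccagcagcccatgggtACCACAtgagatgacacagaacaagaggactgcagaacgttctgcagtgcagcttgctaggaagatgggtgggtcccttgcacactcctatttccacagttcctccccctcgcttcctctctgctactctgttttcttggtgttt
Gimap1, chr6:48738797-48739046, plus strand: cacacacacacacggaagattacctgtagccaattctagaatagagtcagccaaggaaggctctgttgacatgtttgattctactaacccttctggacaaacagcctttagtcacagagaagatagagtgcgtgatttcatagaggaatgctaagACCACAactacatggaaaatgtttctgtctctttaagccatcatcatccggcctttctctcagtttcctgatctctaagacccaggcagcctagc
Gimap6, chr6:48708245-48708494, minus strand: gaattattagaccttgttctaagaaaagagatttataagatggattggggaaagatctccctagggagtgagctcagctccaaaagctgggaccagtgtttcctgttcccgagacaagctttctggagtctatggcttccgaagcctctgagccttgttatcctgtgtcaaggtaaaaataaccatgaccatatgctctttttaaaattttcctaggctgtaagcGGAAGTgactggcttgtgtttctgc
RUNX and ETS factors are known regulators of lymphocyte genes. RefSeq gives the 8 members 9 such windows, since Gimap8 has 2 starts. RUNX letters were found in 3 of the 9 (Gimap1, Gimap4 and Gimap7, all on the minus strand of the gene), against 14.0% of 32851 promoter windows of this length. ETS letters were found in 2 of the 9 (Gimap5 and Gimap6), against 19.7% of all windows. The GATA letters AGATAA were in 0 of the 9, against 9.99% of all. A match of 6 letters is a description of the sequence and not a binding site, and the RUNX letters were in the window of Gimap4 but not of Gimap3.

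Summed over the 8 members, Gimap transcripts were most abundant in CD8-negative lymphocytes of the CD122+CD49a+ gate, at 3742 CPM (3590 to 3898, 447 cells). The Tyrobp or Fcer1g lymphocytes of that gate followed at 2899 CPM (2682 to 3129, 130 cells). The next 3 classes had overlapping intervals and no order among them: LSM CD8-negative lymphocytes at 2118 CPM (1796 to 2482, 26 cells), LSM CD8 lymphocytes at 2027 CPM (1757 to 2327, 46 cells) and CD122+CD49a+ CD8 lymphocytes at 1950 CPM (1760 to 2154, 115 cells). All these lymphocyte classes stood above every other named class. Only 4 LSM lymphocytes fell in the Tyrobp or Fcer1g class, with 11 Gimap UMIs, too few to place it.

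Outside the lymphocytes the family did not vanish. Plasma cell-like cells of the LSM gate had 736 CPM (660 to 819, 73 cells), progenitor-like cells 620 CPM (590 to 652, 451 cells) and basophil-like cells 466 CPM (377 to 569, 97 cells). Plasmacytoid dendritic-like cells were lower, at 122 CPM (98.5 to 150, 169 cells). Myeloid cells were lowest, with 62.7 CPM in the CD122+CD49a+ library (48.4 to 80.0, 443 cells) and 11.3 CPM in the LSM library (9.27 to 13.6, 1805 cells).

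**Figure D1:**
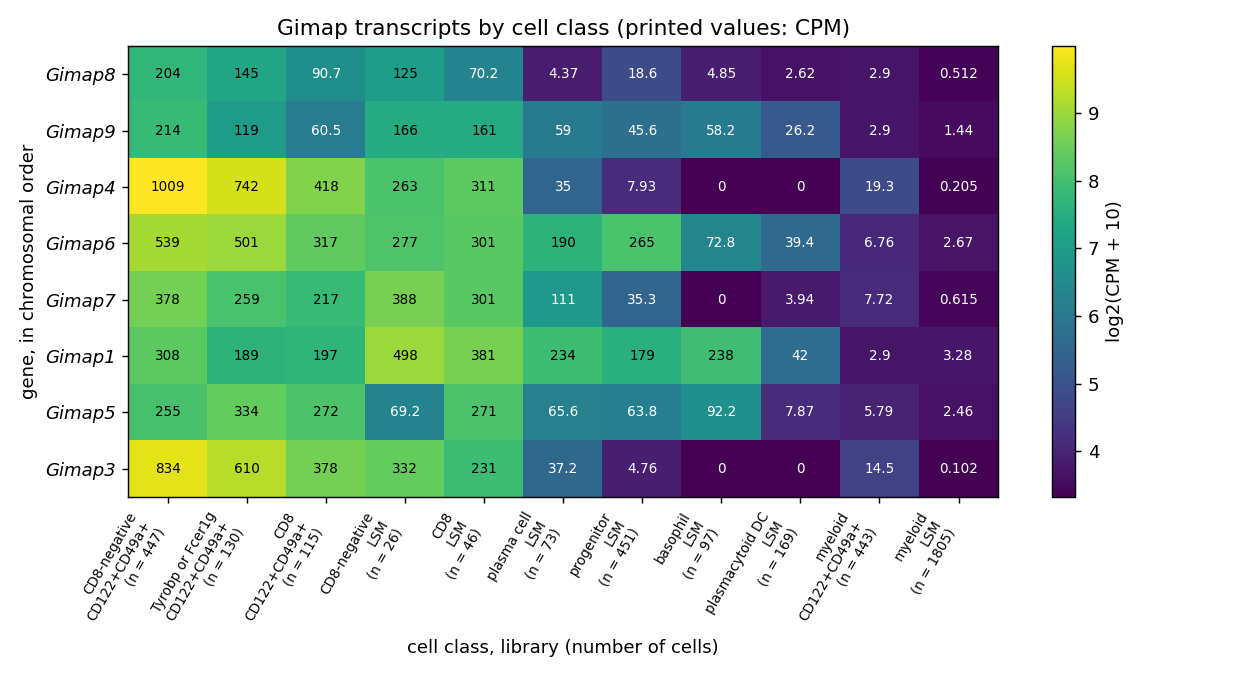
Heat map of the 8 Gimap genes (rows, in chromosomal order) by cell class and library (columns, with the number of cells). Colour is log2(CPM + 10) and each printed value is the CPM of the summed UMI counts of a class. Each gene has its highest value in a lymphocyte column on the left. Gimap1 and Gimap6 stay bright in the plasma cell-like and progenitor-like columns, where Gimap3 and Gimap4 are darker.

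Lymphocytes of the CD122+CD49a+ gate had 51.3 times (40.1 to 66.6) the summed Gimap level of the myeloid cells beside them, 3217 against 62.7 CPM. All 8 members were at least 2-fold higher, where 17.4% of the 7786 genes tested were, and the members' median log2 ratio was 5.71 against 0.20 for all genes tested. A gene was tested where both sums together held at least 20 UMIs. Apart from Gimap4, the members held 3 to 15 UMIs in the myeloid cells and reached that minimum through the lymphocytes, so the count and the median support nothing by themselves. The single ratios ran from 41.6 for Gimap7 to 90.1 for Gimap1. Among 3 other gene lists, the 12 genes of lymphocyte quiescence and homeostasis came nearest, with 7 of 11 tested at least 2-fold higher and a median log2 ratio of 4.23. Of the 15 other GTPases of immune cells and their regulators, which include the interferon-induced Gbp and Irgm genes, 6 were at least 2-fold higher and 1 was lower (background 14.8% lower). Of the 12 survival and autophagy genes, 4 were higher, Bcl2 the most at 7.03 times (5.04 to 10.0), and 1 was lower, Mcl1 at 0.477 times (0.402 to 0.565).

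The low myeloid counts differed between libraries in which members they came from. Gimap3 and Gimap4 together made up 53.8% (41.0 to 66.3) of the 65 myeloid Gimap UMIs of the CD122+CD49a+ library, close to their 48.0% (46.2 to 49.7) in its CD3-transcript cells. In the LSM library, which is rich in progenitor-like cells, the pair made up 2.73% (0.566 to 7.76) of the 110 myeloid Gimap UMIs and 2.05% (1.40 to 2.88) of those of the progenitor-like cells. The CD3 chains, which myeloid cells should lack, stood at 35.7 CPM in CD122+CD49a+ myeloid cells and at 2.05 CPM in LSM myeloid cells. Whether the myeloid Gimap UMIs were made by the myeloid cells or came from free RNA was not tested.

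Of the 8 members, Gimap4 and Gimap3 were the most counted in CD122+CD49a+ lymphocytes. Gimap4 stood at 1009 CPM (931 to 1092) in CD8-negative, 742 CPM (635 to 863) in Tyrobp or Fcer1g and 418 CPM (333 to 518) in CD8 lymphocytes. Gimap3, whose protein sits on membranes inside the cell, stood at 834 CPM (763 to 909), 610 CPM (513 to 721) and 378 CPM (297 to 474) in the same order. For both genes the CD8-negative and CD8 intervals did not overlap.

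Gimap6, the member tied to autophagy through Gabarapl2, was at 539, 501 and 317 CPM in CD8-negative, Tyrobp or Fcer1g and CD8 lymphocytes. Gimap7, a GTPase that pairs with other members, was at 378, 259 and 217 CPM. Gimap1, which mature T and B cells need, was at 308, 189 and 197 CPM. In these 3 genes CD8 cells were again below CD8-negative cells, by less than in the leading pair.

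Gimap5, whose loss leaves mice and rats with few T cells, was the exception, at 255 CPM (216 to 298) in CD8-negative, 334 CPM (263 to 418) in Tyrobp or Fcer1g and 272 CPM (204 to 355) in CD8 lymphocytes, and these intervals overlap. Gimap8, a larger member with several GTP-binding domains, was at 204, 145 and 90.7 CPM. Gimap9 was at 214 CPM (179 to 254), 119 CPM (78.1 to 173) and 60.5 CPM (31.2 to 106), the largest relative step of the 8.

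In LSM lymphocytes Gimap4 and Gimap3 did not stand out from the other members. Gimap1 had the highest value, at 498 CPM (349 to 690) in the 26 CD8-negative and 381 CPM (270 to 523) in the 46 CD8 cells. Gimap7 was at 388 and 301 CPM, Gimap3 at 332 and 231 CPM, Gimap4 at 263 and 311 CPM, and Gimap6 at 277 and 301 CPM. The intervals of these genes and of Gimap1 overlapped within each class, so no order among them is shown. Gimap5 was at 69.2 CPM (22.5 to 162) in CD8-negative and 271 CPM (179 to 394) in CD8 cells, without overlap, from 5 and 27 UMIs. Gimap9 was at 166 and 161 CPM and Gimap8 at 124.6 and 70.2 CPM.

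**Figure D2:**
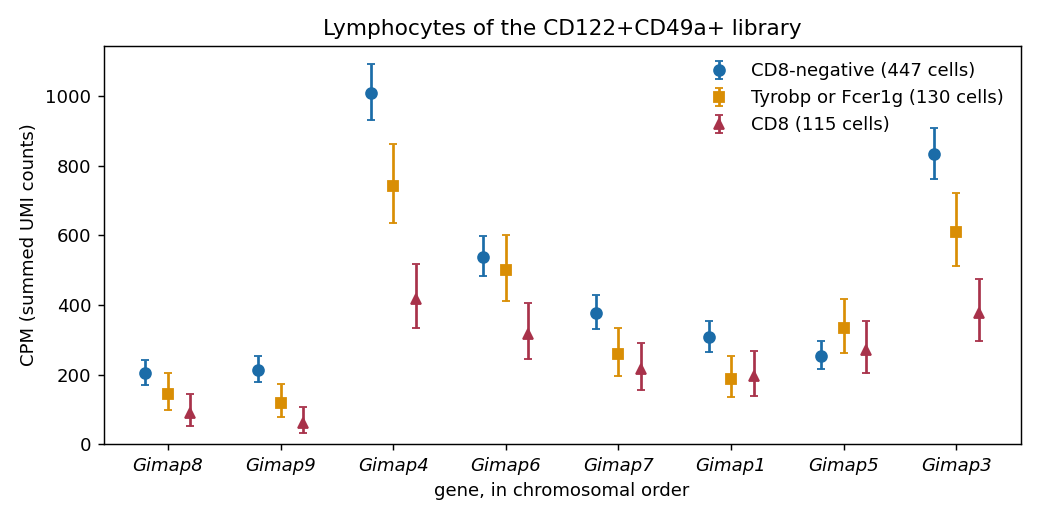
CPM of each Gimap gene (x axis, in chromosomal order) in the CD8-negative, Tyrobp or Fcer1g and CD8 lymphocytes of the CD122+CD49a+ library, with exact 95% Poisson intervals for counting error. Gimap4 is at 1009 and 418 CPM and Gimap3 at 834 and 378 CPM in the first and last class, while the 3 intervals of Gimap5 overlap.

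Set as ratios, CD8 lymphocytes had 0.521 times (0.467 to 0.581) the summed Gimap level of CD8-negative lymphocytes. Gimap3 (0.453), Gimap4 (0.414), Gimap8 (0.444) and Gimap9 (0.282) were at least 2-fold lower in CD8 cells, 4 of 8 members where 18.1% of 4702 genes tested were, and 0 of 8 were at least 2-fold higher (background 3.04%). In CD8 cells Gimap8 and Gimap9 held fewer UMIs than the minimum for a gene to be tested. They reached it through the CD8-negative cells, so the count of 4 supports nothing by itself. Gimap3 and Gimap4 met it in the CD8 cells alone, with 75 and 83 UMIs. Gimap5 had a ratio of 1.07 (0.769 to 1.46). The members' median log2 ratio was -0.97 against -0.30 for all genes tested, so many other genes were lower in CD8 cells too. The Tyrobp or Fcer1g class had 0.775 times (0.709 to 0.845) the CD8-negative level, with 0 of 8 members at least 2-fold higher or lower (background 3.15% and 10.2%).

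The other lists had medians nearer to 0, at 0.01, -0.10 and -0.22 for the survival, GTPase and quiescence genes. Their background was 3.04% of genes higher and 18.1% lower in CD8 cells. Of the 12 survival and autophagy genes, 10 were tested, and 1 was at least 2-fold higher and 1 lower: the proapoptotic Bad had a ratio of 2.07 (0.734 to 5.51) on 8 and 12 UMIs, and the antiapoptotic Bcl2 had 0.424 (0.275 to 0.631). Of the 12 quiescence genes, 9 were tested, with 2 higher and 1 lower (Lef1 at 0.444, from 5 and 35 UMIs): the transcription factor Klf2 was higher in CD8 cells, at 2.45 times (1.62 to 3.69), as was S1pr1, the receptor that draws lymphocytes out of tissue, at 2.72 times (1.44 to 5.09). Of the 15 GTPases, 13 were tested, with 0 higher and 3 lower: Gbp7 and Igtp had ratios of 0.262 and 0.466, and Irgm2, with 0 UMIs in CD8 cells, was at least 3.22-fold lower there. Gbp7 and Igtp held 6 and 15 UMIs in CD8 cells. These 3 genes and Lef1 reached the minimum through the CD8-negative cells, so the count of lower GTPases supports nothing by itself.

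Subsets split by single transcripts, chosen after the values were seen, showed where the CD8 level varied. CD8 lymphocytes that also had a Tyrobp or Fcer1g UMI had 2685 CPM (2251 to 3178, 30 cells), and those without had 1701 CPM (1497 to 1924, 85 cells). Of the 6 members tested there, Gimap4 was at least 2-fold higher, at 2.15 times (1.35 to 3.39), where 5.70% of 1088 genes were, and 0 were lower (background 9.10%). Within the Tyrobp or Fcer1g class, cells with a CD3 UMI had 3164 CPM (2915 to 3429, 116 cells) and the 14 without had 1651 CPM (1277 to 2100). CD8-negative cells with a UMI of Cd4, the co-receptor of helper T cells, had 3866 CPM (3465 to 4300, 58 cells) and those without had 3721 CPM (3558 to 3889).

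The state of the cell also went with the level. CD3-transcript cells of the CD122+CD49a+ gate with a UMI of the proliferation genes Mki67 or Top2a had 2282 CPM (1997 to 2596, 41 cells) and those without had 3396 CPM (3277 to 3519, 635 cells), a ratio of 0.672 (0.585 to 0.769). Gimap3 had the lowest ratio, 0.499 (0.350 to 0.691), the only 1 of 8 members at least 2-fold lower (background 15.8%), and 0 of 8 were at least 2-fold higher (background 9.33%). The cells with Mki67 or Top2a were deeper, with a median of 2265 against 1281 UMIs. Cells with a UMI of Cxcr6, a chemokine receptor of liver-resident lymphocytes, had 1.02 times (0.947 to 1.10) the level of those without, with 0 of 8 members at least 2-fold higher or lower (background 2.15% and 3.80%).

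Seen per cell, most lymphocytes had a Gimap UMI. After thinning to 1000 UMIs, 95.4% (92.7 to 97.4) of 350 CD8-negative, 94.4% (88.2 to 97.9) of 107 Tyrobp or Fcer1g and 82.9% (74.3 to 89.5) of 105 CD8 lymphocytes of the CD122+CD49a+ gate had at least 1 Gimap UMI, and 98.0%, 97.7% and 94.8% did before thinning, at median depths of 1225, 1406.5 and 1481 UMIs. Thinning left out shallower cells and kept 350 of 447, 107 of 130 and 105 of 115. In the myeloid cells of the same library the thinned share was 4.96% (3.01 to 7.64) of 383 cells and the unthinned 8.58%, at a median of 2178 UMIs, with 383 of 443 cells kept.

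In the LSM library the thinned shares were 84.0% (73.7 to 91.4) of 75 CD3-transcript cells, 43.7% (39.0 to 48.4) of 451 progenitor-like cells and 0.670% (0.346 to 1.17) of 1792 myeloid cells. Unthinned, they were 96.1%, 88.9% and 3.32%, at medians of 2327, 5059 and 5464 UMIs, and 75 of 76, 451 of 451 and 1792 of 1805 cells were kept. The progenitor-like share was far above the myeloid share of the same library.

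A thinned CD8-negative cell of the CD122+CD49a+ gate had UMIs of 2.60 members on average, a Tyrobp or Fcer1g cell of 2.31 and a CD8 cell of 1.65. No cell of these classes had more than 6 of the 8 members at that depth. An LSM CD3-transcript cell had 1.59 members and a progenitor-like cell 0.539, with at most 3.

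**Figure D3:**
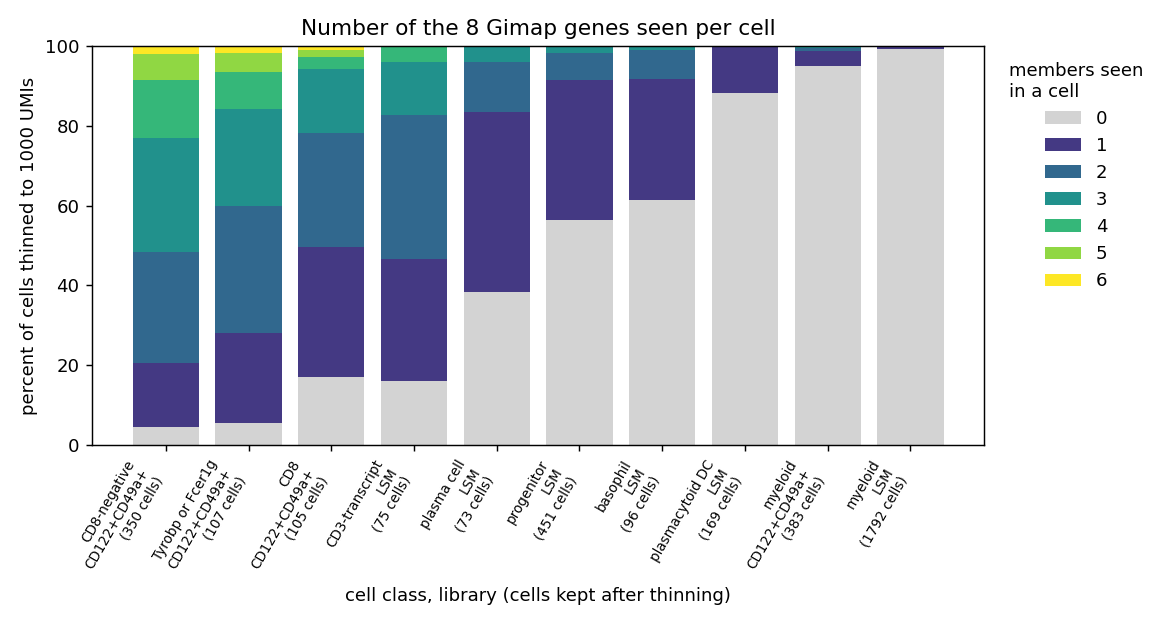
Percent of cells (y axis), thinned to 1000 UMIs, in which 0 to 6 of the 8 Gimap genes had a UMI, by class and library (x axis, with the cells kept after thinning). Grey marks cells with none, which are 4.57% of CD8-negative lymphocytes, 56.3% of progenitor-like cells and 99.3% of LSM myeloid cells.

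In progenitor-like cells Gimap6 and Gimap1 were the most counted members. Gimap6 stood at 265 CPM (245 to 286) there and Gimap1 at 179 CPM (163 to 196), and together they made up 71.6% (69.3 to 73.8) of the Gimap UMIs. Gimap5 followed at 63.8 CPM (54.3 to 74.5), Gimap9 at 45.6 CPM, Gimap7 at 35.3 CPM and Gimap8 at 18.6 CPM. Gimap3 and Gimap4, which led in CD122+CD49a+ lymphocytes, were at 4.76 CPM (2.46 to 8.31) and 7.93 CPM (4.84 to 12.2), from 12 and 20 UMIs in 451 cells.

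The progenitor-like level was 55.0 times (45.3 to 67.3) that of LSM myeloid cells in sum. The 7 members that held 20 UMIs were all at least 2-fold higher, where 20.8% of 10466 genes were and 11.7% were lower; Gimap3 had 13 UMIs in both classes together and was not tested. The minimum of 20 UMIs favours members that are high in progenitor-like cells, so this count supports nothing by itself. Of the 15 other GTPases in the same comparison, 2 were at least 2-fold higher and 3 lower. Rhoh had a ratio of 6.75 (5.77 to 7.91) and Gbp7 of 3.32, while Gbp2, Gbp4 and Rap1b were at 0.139, 0.116 and 0.387. Of the 9 quiescence genes tested, 4 were higher, among them Klf2 (2.95) and Il7r, the interleukin-7 receptor (5.80), and 2 were lower. Of the 12 survival and autophagy genes 2 were higher, Gabarapl1 at 3.92 (3.13 to 4.90) and Bcl2l11 at 2.19, and Bak1 was lower, at 0.333.

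Within the LSM library, CD3-transcript cells had 3.22 times (2.86 to 3.61) the progenitor-like level. Gimap6 did not differ beyond counting error, at 278 against 265 CPM and a ratio of 1.05 (0.772 to 1.39). The other 7 members were at least 2-fold higher in the CD3-transcript cells, 7 of 8 where 9.92% of 7830 genes were and 19.6% were lower, with a median log2 ratio of 2.08 against -0.09 for all genes tested. Gimap3, which reached the minimum through the CD3-transcript cells, was 55.0 times (28.8 to 114) and Gimap4 35.7 times (20.97 to 63.2) higher, whereas Gimap7 was 9.11, Gimap8 4.97, Gimap9 3.58, Gimap5 2.90 and Gimap1 2.28 times higher. Among the other lists, 7 of 13 GTPases, 6 of 9 quiescence genes and 1 of 11 survival and autophagy genes tested were at least 2-fold higher. Ccr7 of the quiescence genes (0.357) and Gabarapl1 of the survival and autophagy genes (0.421) were at least 2-fold lower. Bcl11b and S1pr1, counted as higher quiescence genes, held 0 and 8 UMIs in progenitor-like cells and reached the minimum through the CD3-transcript cells. CD3-transcript cells also had no UMI of the 6 progenitor genes, and the progenitor-like cells had 4 CD3 UMIs, all of 1 gene. Cells that met both rules had been set aside, so these low counts were partly built in.

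Among progenitor-like cells the sum varied little with lineage genes. Cells with a UMI of Dntt, a lymphoid priming gene, had 703 CPM (644 to 765, 132 cells) and cells with Hlf or Mecom, genes of stem cells, had 636 CPM (559 to 719, 74 cells), a ratio of 1.11 (0.9499 to 1.29). Cells with Flt3, a growth factor receptor of early progenitors, had 613 CPM and those without had 632 CPM. With the Il7r transcript the level was 620 CPM (560 to 685), as it was without (585 to 656). None of the members tested in the Dntt and Flt3 comparisons was 2-fold higher (background 4.41% and 3.23%) or lower (3.12% and 1.61%). These subsets were chosen after the values were seen. Cells with Mki67 or Top2a were lower, at 424 CPM (367 to 487, 55 cells) against 665 CPM (630 to 701, 396 cells), and were deeper, with a median of 7608 against 4882 UMIs.

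The other LSM classes differed in their make-up. In plasmacytoid dendritic-like cells Gimap1 and Gimap6 together made up 66.7% (56.1 to 76.1) of 93 Gimap UMIs, near the progenitor-like share, and Gimap3 and Gimap4 had 0 UMIs. In basophil-like cells Gimap1 led at 238 CPM (176 to 314), with Gimap5 at 92.2, Gimap6 at 72.8 and Gimap9 at 58.2 CPM. Gimap3, Gimap4 and Gimap7 had 0 UMIs in the 97 cells, which allows up to 14.6 CPM each. The 4 members with 20 UMIs or more were at least 2-fold above LSM myeloid cells, where 15.1% of 9769 genes were and 17.0% were lower. Members below 20 UMIs had no such reading. Gimap9 held 14 UMIs in the myeloid cells and reached the minimum through the 12 of the basophil-like cells. The minimum thus favours members that are high in basophil-like cells, and this count supports nothing by itself. Plasma cell-like cells had Gimap1 at 234 CPM, Gimap6 at 190 CPM and Gimap7 at 111 CPM, and unlike basophil-like cells they held Gimap3 (37.2 CPM) and Gimap4 (35.0 CPM).

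**Figure D4:**
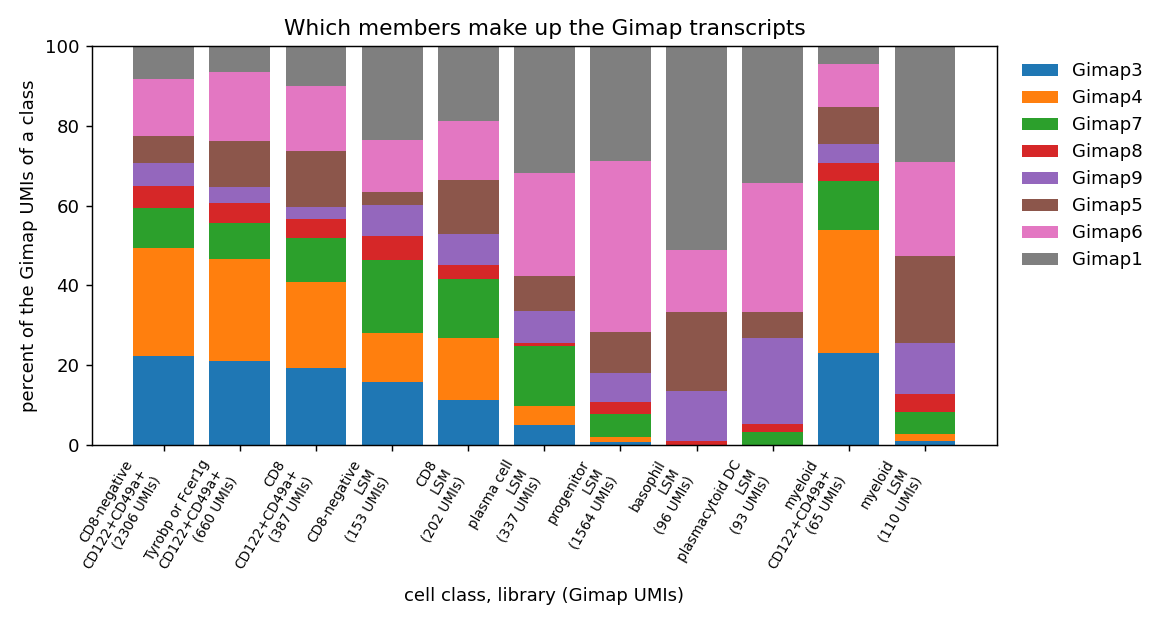
Share of each member (colours) among the Gimap UMIs of a class (y axis, percent), by class and library (x axis, with the number of Gimap UMIs). Gimap3 and Gimap4 together fill 49.3% of the bar of CD8-negative lymphocytes of the CD122+CD49a+ gate, 2.05% of the progenitor-like bar and nothing of the basophil-like bar, where Gimap1 alone fills 51.0%.

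Over the 10 classes of at least 30 cells, the members' levels on the log2(CPM + 10) scale varied together to different degrees. Gimap3 and Gimap4, which are not neighbours on the chromosome, were nearly identical in pattern (Pearson r = 0.999 over 10 classes). Gimap1 was closest to Gimap9 (r = 0.936) and least like Gimap4 (r = 0.553). These values describe classes that share 2 libraries and their depths. Of 7573 genes ranked, those closest to the members' sum were Pld3, Inpp1, Prkar1a, Gpr174, Impdh1, Kdm4c, Sept1 and Abhd8, with r from 0.951 to 0.900. Pld3, an endolysosomal exonuclease, was at 69.8 CPM in CD122+CD49a+ CD8-negative lymphocytes, 23.0 CPM in progenitor-like and 8.69 CPM in CD122+CD49a+ myeloid cells. Gpr174, a lysophosphatidylserine receptor, was at 94.1, 15.1 and 0.965 CPM in the same classes.

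Tmem176b and Tmem176a, the membrane protein genes beyond Gimap3, named for their position after their values were seen, were high in myeloid cells, at 469 and 372 CPM in the LSM and 377 and 275 CPM in the CD122+CD49a+ library. In CD8-negative lymphocytes of the latter they were at 45.4 and 35.7 CPM, the opposite order to every Gimap gene. Progenitor-like cells held both kinds, with Tmem176b at 430 CPM.

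The CD3-transcript cells of the 2 gates were compared last. Their summed Gimap level was 3283 CPM (3172 to 3398, 676 cells) in the CD122+CD49a+ and 1994 CPM (1795 to 2209, 76 cells) in the LSM library, a ratio of 1.65 (1.48 to 1.84). Gimap4 was at 860 against 283 CPM, a ratio of 3.04 (2.29 to 4.10), and Gimap3 at 715 against 261 CPM, a ratio of 2.73 (2.04 to 3.74). These 2 of 8 members were at least 2-fold higher, where 27.2% of 5788 genes tested were (7.17% were lower), so the count was near the background. The median log2 ratio was 0.71 for the members and 0.31 for all genes tested. The CD3-transcript cells held 3284 of the 3687 Gimap UMIs kept in the CD122+CD49a+ library. The members were chosen by whole-library counts in this same direction, so the direction of the sum, the count and the median support nothing by themselves.

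Gimap1 went the other way, at 265 against 409 CPM, a ratio of 0.649 (0.5001 to 0.850). Gimap7 (1.02) and Gimap9 (1.03) did not differ beyond counting error, and Gimap5, Gimap6 and Gimap8 had ratios of 1.51, 1.77 and 1.89. With trimmed-mean scaling Gimap7 and Gimap9 had ratios of 0.966 and 0.973, and the other 6 members kept their direction. The make-up moved with these ratios: Gimap3 and Gimap4 were 48.0% of the Gimap UMIs of CD122+CD49a+ CD3-transcript cells and 27.3% (22.8 to 32.2) of the LSM ones.

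The make-up of the lymphocytes differed between the gates too, with 46 CD8 cells among 76 LSM lymphocytes and 115 among 700 CD122+CD49a+ lymphocytes. Within CD8 lymphocytes the ratio of the sums was 0.962 (0.809 to 1.15), with 0 of 8 members at least 2-fold higher (background 10.7%) and 1 lower (background 9.77%), Gimap9 at 0.377 (0.163 to 0.848). Within CD8-negative lymphocytes it was 1.77 (1.499 to 2.09). There Gimap4 (3.84), Gimap5 (3.68, on 5 LSM UMIs) and Gimap3 (2.51) were at least 2-fold higher, 3 of 8 members with a background of 26.5%, and 0 of 8 were lower (background 9.58%). The difference between these 2 ratios was not tested. Gimap1 was lower in the CD122+CD49a+ library in both, at 0.619 (0.431 to 0.910) and 0.515 (0.321 to 0.828). The LSM side rests on 26 and 46 cells. Of the 3 members counted as higher in CD8-negative lymphocytes, Gimap4 and Gimap5 held 19 and 5 LSM UMIs, below the minimum for testing. They reached it through the CD122+CD49a+ cells. The members were also chosen by whole-library counts in this direction, so that count of 3 supports nothing by itself.

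**Figure D5:**
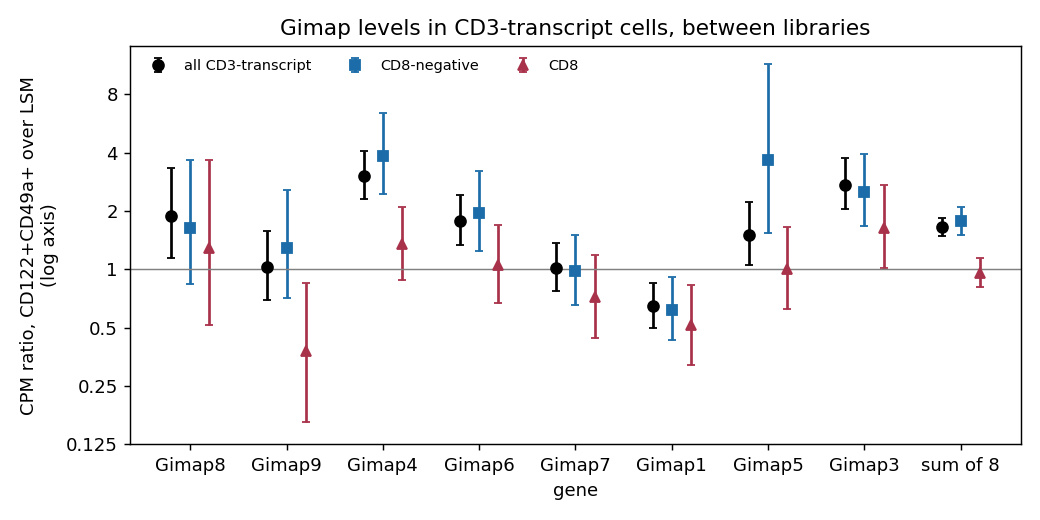
Ratio of CPM between the CD122+CD49a+ and LSM libraries (y axis, log scale) for each Gimap gene and their sum (x axis), in all CD3-transcript cells, CD8-negative and CD8 lymphocytes, with exact 95% intervals for counting error. The sum lies at 1.65 for all, 1.77 for CD8-negative and 0.962 for CD8 cells, and Gimap1 lies below 1 in each.

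The ratio depended on how many genes a cell had. Among CD3-transcript cells with at least 500 and under 750 detected genes the summed level was 3589 CPM in the CD122+CD49a+ (502 cells) and 1766 CPM in the LSM library (20 cells). With at least 750 and under 1000 genes it was 3111 CPM (135 cells) against 1949 CPM (31 cells). With 1000 genes or more it was 2215 CPM (1968 to 2484, 39 cells) against 2112 CPM (1812 to 2448, 25 cells), a ratio of 1.05 (0.867 to 1.27), and Gimap4 alone stayed at least 2-fold higher, at 2.25 (1.45 to 3.58). Gimap3 was then at 1.41 (0.829 to 2.49), and Gimap6, Gimap7, Gimap8 and Gimap9 were below 1. CD8-negative lymphocytes of that depth had 2555 CPM (2186 to 2968, 20 cells) and 2468 CPM (2008 to 3002, 11 cells) in the CD122+CD49a+ and LSM libraries. In that last group 53.8% of the CD122+CD49a+ cells and 0% of the LSM cells had an Mki67 or Top2a UMI, against 5.19% and 12.9% in the middle group and 2.59% and 0% in the lowest. The part of depth and of proliferation in the difference between the gates was not tested.

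Other genes of the same cells gave a setting for these ratios. Of the 12 survival and autophagy genes 11 were tested, with 3 at least 2-fold higher, 1 lower and a median log2 ratio of -0.41. The background for this and the next 2 lists was 27.2% higher and 7.17% lower. The 3 higher genes held 2 to 6 LSM UMIs and reached the minimum through the CD122+CD49a+ cells, so their count supports nothing by itself. Bcl2 was at 270 CPM in the CD122+CD49a+ and 16.3 CPM in the LSM CD3-transcript cells, a ratio of 16.5 (5.59 to 80.6) that rests on 3 LSM UMIs. The autophagy genes Gabarapl2 and Map1lc3b had ratios of 0.524 (0.415 to 0.667) and 0.494 (0.376 to 0.654). Of the 15 other GTPases 14 were tested, with 2 higher and 1 lower: of the higher genes, Gbp4 had a ratio of 2.49 and Irgm2 was at least 2.26-fold higher. Gbp4 and Irgm2 held 9 and 0 LSM UMIs and reached the minimum through the CD122+CD49a+ cells too. Of the 12 quiescence genes 11 were tested, with 0 higher and 2 lower: Klf2 was at 135 against 1095 CPM, a ratio of 0.123 (0.0984 to 0.154), and S1pr1 at 54.0 against 114 CPM.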

How the data were processed

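Liver leukocytes of 2 sorting gates, 1 library each, were analysed from matrices of raw UMI counts deposited by the authors. Per the file headers, the matrices were written by software of version 3.0.1. The build GRCm38 and the tools STAR and Seurat (2.3.0) come per the submitters' processing notes, which give them no step. How reads were counted, whether strand was used and how barcodes were picked are not given in the sources used here.

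Groups came from the sample labels. Barcodes with at least 500 detected genes were kept. Doublets were left in, because the automatic Scrublet threshold marked 0.423% and 0.398% of cells; an alternative removed the 76 and 13 cells with the highest scores, at rates of 2.46% and 1.01% set from the cell numbers. Classes followed marker transcripts, and 211 LSM and 64 CD122+CD49a+ cells met no rule. Set aside as mixed were 192 and 36 cells. These met several of the rules other than the myeloid one, or the lymphocyte or progenitor-like rule with 4 or more myeloid list genes. Lymphocytes with 3 myeloid list genes, 1 LSM and 21 CD122+CD49a+ cells, were kept. Basophil-like, plasmacytoid dendritic-like and plasma cell-like cells had no limit on myeloid list genes. Counts were summed per class and divided by the class total (CPM). Ratios carry exact conditional intervals, levels exact Poisson intervals and shares Clopper-Pearson intervals, all at 95% and for counting error only. A count of 0 was bounded at 3 counts in the class. Cells were thinned to 1000 UMIs for shares. A gene was tested for the background with at least 20 UMIs and called at 2-fold. No p-value was computed. Depth bins and splits by Tyrobp or Fcer1g, Cd4, Dntt, Flt3 and Il7r were added after the values were seen.

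Members, lists, markers and classes were chosen with earlier results of these data known. The named genes are the members, other Gimap rows, the 3 lists and the 8 genes whose class pattern was most like the members' sum among genes with at least 100 UMIs, gate genes left out. Tmem176a, Tmem176b and the read-through gene Gm28053 lie outside this rule and were named for their position, after values were seen. Positions came from GENCODE M21 and promoters from RefSeq GRCm38.p6.

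Python 3.11.15, numpy 2.4.6, scipy 1.17.1, pandas 2.3.3, scanpy 1.11.5, leidenalg 0.10.2, and R 4.3.3 with edgeR 4.0.16 (for trimmed-mean scaling only) were used. The procedure was tested on simulated data for the comparison of CD3-transcript cells: over 5788 genes, 97.0% of the intervals of unchanged genes held the simulated ratio, and 8.38% of those were called 2-fold higher, against 44% of genes raised 2-fold and 97% raised 4-fold.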

Additional observations from a re-analysis of the deposited data

Results flagged for a closer look

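Barcodes with fewer than 500 detected genes entered no comparison, and both libraries held Gimap UMIs there. The 398 such barcodes of the CD122+CD49a+ library (median 666 UMIs) had 649 Gimap UMIs, a summed level of 2313 CPM (2138 to 2498), and 211 of them had at least 1 Gimap UMI. The 59 of the LSM library (median 643 UMIs) had 8 Gimap UMIs, 206 CPM (88.8 to 405), in 5 barcodes. Both levels stood above 10.7 and 77.1 CPM, the level of 3 counts at which a count of 0 was bounded. What these barcodes hold was not tested.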

How the results depend on the processing

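The alternatives were a minimum of 300 or of 1000 detected genes, removal of likely doublets and of cells over 10% mitochondrial UMIs, 3 list genes in place of 2, classes from clusters made without Gimap genes, at least 2 CD3 UMIs, means of single-cell CPM, trimmed-mean scaling, no minimum of UMIs and thinning to 1500 UMIs. Leaving out the shared barcodes, and taking any cell with a CD3 UMI and under 4 myeloid genes, were added after the data were seen. Over these, 53 values for whole comparisons stayed within their interval or count limit, 12 moved past it and 0 reversed. Only a value at least 2-fold from 1 could be labelled reversed, so ratios nearer 1 and counts of members could not. Of such ratios, CD8 over CD8-negative lymphocytes ran from 0.518 to 0.547 and Tyrobp or Fcer1g over CD8-negative lymphocytes from 0.609 to 0.832. With at least 1000 detected genes the ratio of the CD3-transcript cells was 1.05 and 1 member was past 2-fold; Gimap6 (0.843), Gimap7 (0.695), Gimap8 (0.843) and Gimap9 (0.409) were then below 1. Its range over all settings was 1.05 to 1.83. Clusters gave 0.609 for Tyrobp or Fcer1g over CD8-negative lymphocytes and 74.7 for progenitor-like over myeloid cells, and 3 list genes gave 75.1 for the latter. The value of 0.609 joined 2 unlike clusters. One had 58 cells, 68.6% of the classified ones Tyrobp or Fcer1g, at 3835 CPM. The other had 31 cells, 36% of the classified ones of that class, at 1576 CPM. The CD8-negative cluster stood at 3950 CPM. Means of single-cell CPM gave 38.4 for lymphocytes over myeloid cells, and any CD3 UMI gave 2.83 for CD3-transcript over progenitor-like cells. The causes of these moves were not tested. At 1500 UMIs the shares of cells with a Gimap UMI were 98.3% in Tyrobp or Fcer1g, 95.6% in CD122+CD49a+ CD3-transcript, 95.5% in LSM CD3-transcript, 58.9% in progenitor-like and 1.32% in LSM myeloid cells. Without a minimum of UMIs, 16.7% of 11835 genes were at least 2-fold higher between the CD3-transcript cells, in place of 27.2%. The LSM side of the CD3-transcript comparison rests on 76 cells with 366 Gimap UMIs. No paired analysis was possible because each gate has 1 library and the labels give no replicate numbers.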
